A study of Mus musculus with 6 samples.

Results

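Hearts of mice with a general deletion of Jmjd2a (now Kdm4a) were set against hearts in which the gene had been deleted only in the heart. The 3 knockout arrays were taken from the 6 arrays of the series by their titles: 1 array of a general knockout and 2 arrays of heart-specific knockouts, one from a female and one from a male. The other 3 arrays hold the wild types of the same lines, 1 for the general line and 2 for the heart-specific line, again a female and a male. All hearts were from adult mice, and total RNA was measured on single-colour Illumina bead arrays. The sex of the general-line mice, the strain of either line, the promoter that drives the heart-specific deletion, the share of heart cells it reaches and the hour at which hearts were collected are not stated in the labels used here. No treatment is named for any group. With 1 array on the general side, the comparison is a description of these hearts, and the number of arrays limits its precision.

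Kdm4a encodes a lysine demethylase with a Jumonji domain that removes methyl groups from histone H3 at lysines 9 and 36. Lysine 9 methylation is a mark of silent chromatin, and lysine 36 methylation lies over transcribed gene bodies. In the mouse heart the enzyme is known from work on pressure overload, where it takes part in the hypertrophic gene programme. A general deletion removes it from every cell of the heart and of the rest of the body, whereas a heart-specific deletion leaves it in other organs.

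Kdm4a itself gave no check of the genotypes. Its 3 probes lay at or near background on nearly all arrays, and the brightest had intensities of 102 in the general knockout, 107 (female) and 114 (male) in the heart-specific knockouts, 115 in the general wild type, and 119 and 123 in the female and male heart-specific wild types. The heart markers were as the tissue label states: Myl2, the ventricular myosin light chain, had intensities of 39341 in the general knockout against 43509 and 38572 in the heart-specific knockouts, and all 9 listed ventricular markers were measured. Xist, which marks the inactive X chromosome, had 104 in the general knockout, 1542 in the female and 102 in the male heart-specific knockout. Eif2s3y, a Y-linked gene, had 1380, 104 and 917 on the same arrays. The general knockout array therefore carried the male pattern, and so did the general wild type, with 101 for Xist and 1116 for Eif2s3y. Sex thus differs between the general array and 1 of the 2 heart-specific knockouts, and a gene that differs from both is not set apart by sex alone.

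The general wild-type array stood apart from the other 5. Summed over 9 atrial markers its intensity was 44023, against 14250 to 27297 on the other arrays, and most of that sum was Nppa (39341). Of the 9 markers 6 were above both heart-specific wild types there and 2 below both (31.3% and 37.2% of all genes). Myl4, the atrial myosin light chain, read 2385 there against 295 to 1078 elsewhere. The summed platelet markers gave 4438 against 1326 to 1931. Values of the wild types are given beside those of most named genes, and those that turn on the general wild type carry its makeup with them. In bulk hearts, fewer cells of a type and less RNA per cell cannot be told apart.

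The 3 knockout hearts were close to one another. Of 11185 genes above background, the general knockout differed at least 2-fold from the female heart-specific knockout in 55 genes, 29 higher and 26 lower, and from the male in 72 genes, 40 higher and 32 lower. The female and male heart-specific knockouts differed from each other to the same extent in 50 genes. The SD of the log2 differences across genes was 0.25 for the general against the female, 0.29 for the general against the male and 0.25 between the female and male heart-specific hearts. The gap between lines was thus about as wide as the gap between 2 hearts of 1 line. Those 2 hearts also differ in sex, so the within-line gap holds a sex difference. The general heart carried the male pattern, and its gap to the male heart was the widest of the 3.

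Requiring a 2-fold difference from both heart-specific knockouts in one direction left 13 genes higher in the general knockout and 10 lower, of 10970 genes above background on at least 1 knockout array (0.119% and 0.0912%). With a normexp background correction at an offset of 16 these counts were 31 and 30, and with the mean of a gene's probes 6 genes were lower. At 1.5-fold the counts were 71 and 41 (0.647% and 0.374%). Without a size limit the general knockout lay above both heart-specific knockouts in 3834 genes and below both in 3895 (34.3% and 34.8% of 11185). No predicted gene model was among the 23 genes. In the limma fit across all genes, in which the lone general arrays are assumed to vary like the heart-specific ones, 0 genes passed an adjusted p of 0.05 for the knockout line difference (0%). At an unadjusted p under 0.05 the same fit gave 383 genes, fewer than the 559 that 5% of all genes would be. The smallest limma adjusted p was 0.958, for Bdh1. No gene below is therefore called changed, and the text gives levels, sizes and the agreement of the arrays. Beyond the sexes, nothing in the labels says that arrays hold separate animals, so each p-value reflects how far these particular arrays vary, a spread that may be technical.

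**Figure D1:**
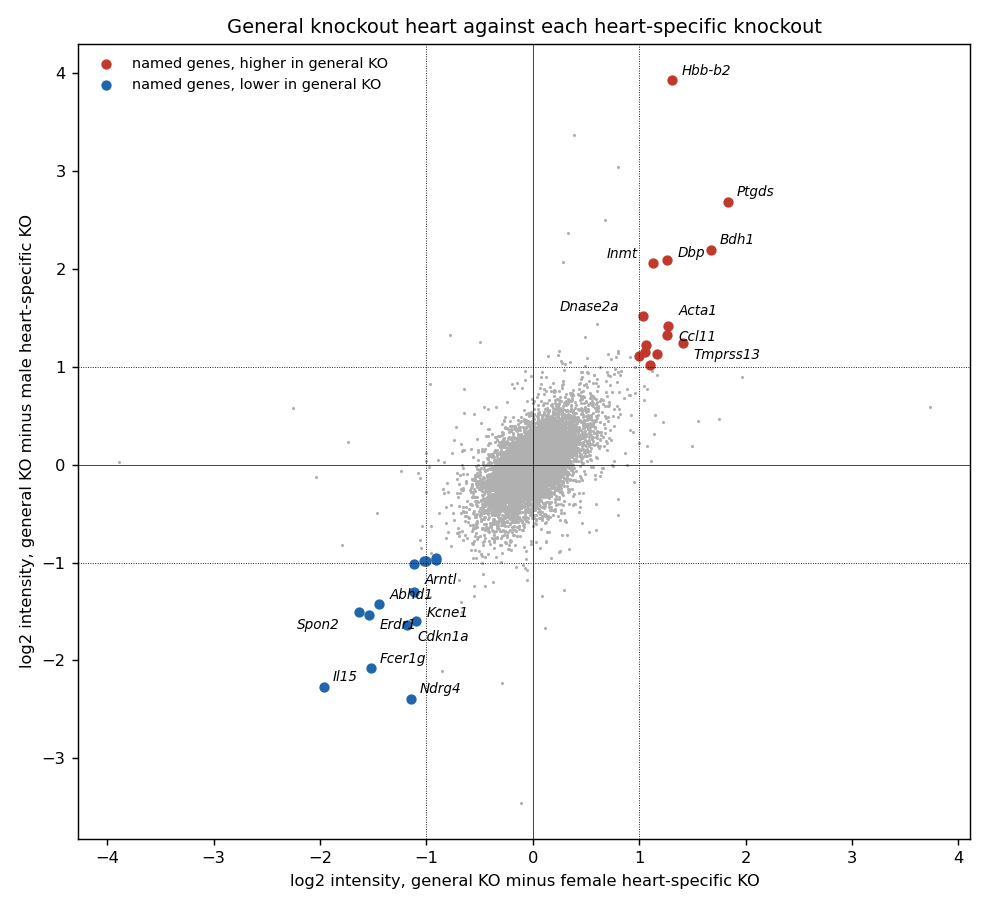
Each point is 1 of 11185 genes. The horizontal axis gives the log2 intensity in the general knockout minus the female heart-specific knockout, the vertical axis the same against the male, dotted lines mark 2-fold, and named genes higher (red) and lower (blue) in the general knockout fall in the outer corners, led by Ptgds (1.83 and 2.69) and Il15 (-1.97 and -2.27).

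The threshold cuts through a continuous range. The last genes inside it on the higher side were Rab4a and Dnase2a, with smaller differences of 1.02 and 1.04 on the log2 scale, and the first outside were Cd300lg at 0.997 and Tef at 0.96. On the lower side Wdfy1 (-1.01) and Kcne1 (-1.10) lay inside, and Tmem25 and Cbfa2t3 (-0.98 each) outside. Named below are the 14 genes per direction whose smaller difference was largest.

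Among circadian clock genes, Dbp, Tef, Per2 and Ciart were higher in the general knockout than in both heart-specific knockouts, and Arntl and Clock were lower. The clock runs in heart muscle cells as a feedback loop: ARNTL (BMAL1) with CLOCK drives transcription from E-box elements, PER and CRY proteins repress that pair, the REV-ERB receptors encoded by Nr1d1 and Nr1d2 repress Arntl, and the PAR bZIP factors DBP and TEF carry the rhythm to output genes. Of 18 listed clock genes 13 were measured. In the general knockout 10 of them lay above both heart-specific knockouts and 3 below both, with none between, against 34.3% and 34.8% of all genes. The median log2 difference of the list was 0.37, and that of all genes was -0.01. The list's median was 0.16 with no filter on dim probes and 0.55 with a normexp offset of 16. Under limma 0 of the 13 passed.

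Dbp had an intensity of 3213 in the general knockout against 1338 and 755 in the female and male heart-specific knockouts. In the wild types it had 4284 in the general line against 1452 and 546 in the heart-specific line. The general line was above both heart-specific hearts in either genotype, and the knockout difference was 3.20-fold (log2 1.68 ± 0.59, limma SE). Tef, its close relative, read 490.15 in the general knockout against 252 and 245 in the heart-specific knockouts, a log2 difference of 0.98 ± 0.15 (limma SE), and 526 in the general wild type against 339 and 361. Both kept probes of Tef were higher in the general knockout.

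Among the repressors of the loop, Per2 read 521 in the general knockout against 314 and 247 in the heart-specific knockouts. Its wild types did not divide by line, with 349 in the general heart between 517 and 235 in the heart-specific hearts. Ciart, a repressor of the CLOCK and ARNTL pair, had 213 against 143 and 133 in the knockouts, and 219.6 against 185 and 113 in the wild types. Nr1d2 had 746 in the general knockout against 505 and 565, and Nr1d1 had 239.5 against 193 and 178. Per1 and Bhlhe40 were higher by smaller margins, with mean log2 differences of 0.45 and 0.23. Npas2 and Per3 lay near background, where their differences of 0.02 carry no order.

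The activators Arntl and Clock were lower. Arntl had 169 in the general knockout against 368 and 416 in the heart-specific knockouts, and 202 in the general wild type against 306 and 609 in the heart-specific wild types. It was 2.31-fold lower in the general knockout (log2 -1.21 ± 0.39, limma SE), and the general line was lowest in either genotype. Clock itself read 1015 in the general knockout against 1276 and 1352, and 968 against 1237 and 1739 in the wild types. Cry2, which encodes a repressor, was lower as well, with a mean log2 difference of -0.12 in the knockouts and 0.35 in the wild types.

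The promoters of the clock genes with the widest differences are shown because the activators act through a known element. Each line holds the 250 bases before the transcription start, 5′ to 3′ on the gene's strand, from RefSeq (GRCm38.p6). Capitals mark CACGTG, the E-box, which reads the same on both strands. Tef lies at chr15:81802423-81802672 on the plus strand, Ciart at chr3:95882229-95882478 on the minus strand, Dbp at chr7:45704997-45705246 and Arntl at chr7:113207215-113207464, both on the plus strand.
Tef: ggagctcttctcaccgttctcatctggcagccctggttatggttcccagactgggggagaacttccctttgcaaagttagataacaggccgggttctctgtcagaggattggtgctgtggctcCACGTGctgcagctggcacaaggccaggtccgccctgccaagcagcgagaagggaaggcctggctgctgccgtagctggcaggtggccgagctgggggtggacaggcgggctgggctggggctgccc
Ciart: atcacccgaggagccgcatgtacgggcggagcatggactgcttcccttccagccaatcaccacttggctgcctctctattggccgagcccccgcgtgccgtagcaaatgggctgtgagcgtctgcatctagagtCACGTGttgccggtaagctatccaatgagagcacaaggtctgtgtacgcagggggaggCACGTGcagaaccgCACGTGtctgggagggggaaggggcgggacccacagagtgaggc
Dbp: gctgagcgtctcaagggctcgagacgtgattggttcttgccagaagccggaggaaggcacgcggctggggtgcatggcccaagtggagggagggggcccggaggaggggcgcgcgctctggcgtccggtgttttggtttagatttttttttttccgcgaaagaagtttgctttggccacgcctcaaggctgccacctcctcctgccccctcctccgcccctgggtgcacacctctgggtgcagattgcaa
Arntl: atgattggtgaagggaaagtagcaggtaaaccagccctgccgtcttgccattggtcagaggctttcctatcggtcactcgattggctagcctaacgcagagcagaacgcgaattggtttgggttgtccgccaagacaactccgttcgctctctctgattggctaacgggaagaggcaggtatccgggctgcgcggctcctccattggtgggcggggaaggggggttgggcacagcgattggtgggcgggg

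CACGTG was present in the windows of 3 of the 11 measured clock genes with an entry (Ciart, Per1 and Tef), against 6.02% of 32851 promoters. The variant CACGTT, searched on both strands, was in 2 (Cry2 and Nr1d1) against 3.85%, the D-box TTATGTAA in 1 (Per3) against 0.819%, and the ROR element TAGGTCA in none against 2.23%. A clock gene was counted when any of its entries held the letters, whereas the share of all promoters counts each entry singly. These shares are therefore not the same measure. The letters describe the windows and do not show binding. Per2 had no entry.

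**Figure D2:**
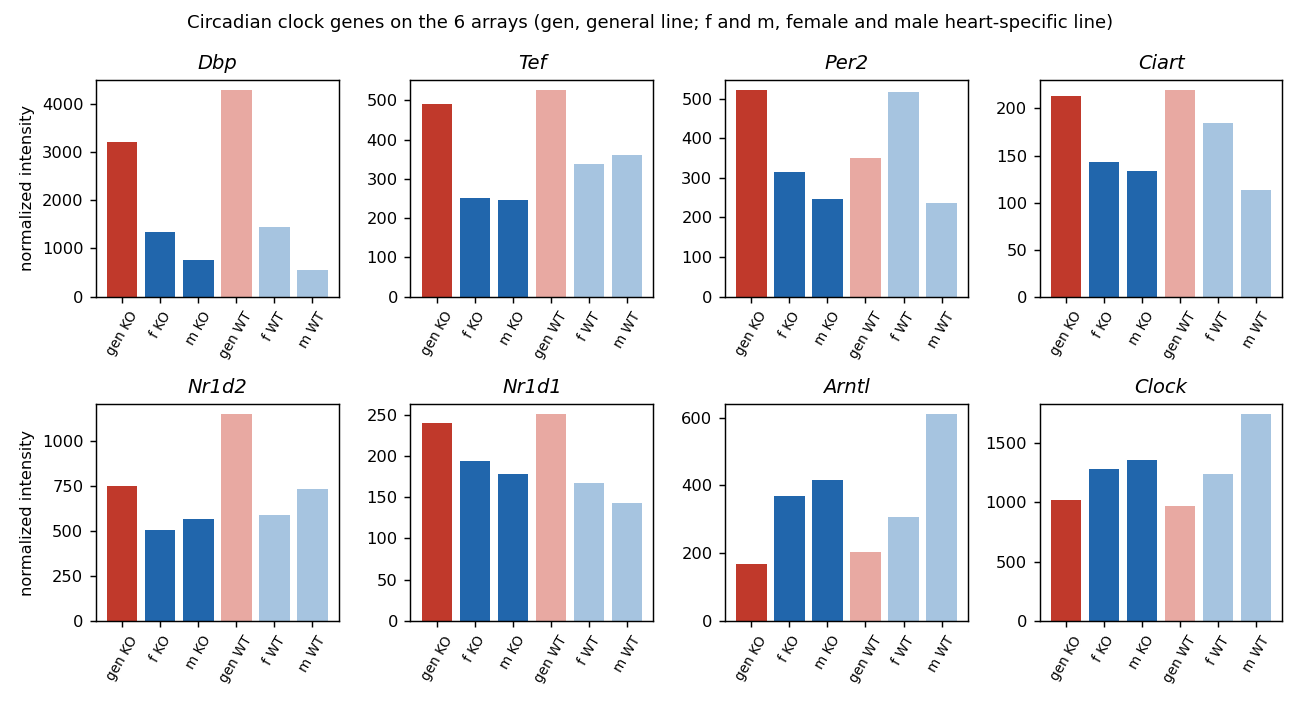
Bars give the normalized intensity, on a linear axis from 0, of 8 clock genes on the 6 arrays (gen, general line; f and m, female and male heart-specific line). Dbp, Tef, Per2, Ciart, Nr1d2 and Nr1d1 are highest among the knockouts in the general heart, and Arntl (169 against 368 and 416) and Clock are lowest there.

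Ptgds, Bdh1, Hsd11b1 and Inmt, which encode enzymes of small-molecule metabolism, were among the genes higher in the general knockout. Ptgds, the lipocalin-type prostaglandin D synthase, had 3167 in the general knockout against 889.5 and 492 in the female and male heart-specific knockouts. That is 4.79-fold (log2 2.26 ± 0.42, limma SE). The wild types showed the same order, with 2284 in the general heart against 803 and 493. Bdh1, the mitochondrial 3-hydroxybutyrate dehydrogenase that turns over ketone bodies, had 519.85 against 163 and 113 in the knockouts, where the male value was at background. Its wild types were nearer to each other, 232 in the general heart against 165 and 167. The log2 difference of Bdh1 was 1.93 ± 0.24 in the knockouts and 0.48 in the wild types, and limma gave an adjusted p near 1 for the gap between those differences.

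Hsd11b1, the reductase that regenerates active glucocorticoid inside cells, had 1607 in the general knockout against 716 and 734 in the heart-specific knockouts. All 4 of its kept probes were higher there, and the wild types had 1367 in the general heart against 934 and 791. Inmt, an indolethylamine N-methyltransferase, had 812 against 369.9 and 195 in the knockouts and 928 against 349.9 and 336 in the wild types. For both genes the general line was the highest in either genotype.

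Glucocorticoid-inducible genes leaned lower. All 11 listed were measured. In the general knockout 8 lay below both heart-specific knockouts and 2 above (34.8% and 34.3% of all genes), with a median log2 difference of -0.37. Cdkn1a, the cyclin-dependent kinase inhibitor p21, had 366 in the general knockout against 831 and 1138, and 509 in the general wild type against 1568 and 934. Its brightest probe gave a 2.66-fold lower level, while 1 of its 3 kept probes was not lower in both comparisons. Zbtb16, the zinc finger factor PLZF, had 153 against 288 and 299 in the knockouts and 126 against 338 and 284 in the wild types. Fkbp5, a co-chaperone of the glucocorticoid receptor, had 165 in the general knockout against 215 and 262, and Pdk4, which restrains glucose oxidation, had 3779.6 against 4862 and 6456. The wild-type median of this list was lower still, at -0.81, and 9 of 11 members were below both in the general wild type (37.2% of all genes).

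Genes of muscle structure and excitation were split. Acta1, the skeletal alpha-actin that heart muscle re-expresses under load, had 4368 in the general knockout against 1806 and 1639 in the heart-specific knockouts. In the wild types it had 16279 in the general heart against 1398 and 4363, so the general line was highest in either genotype and the widest gap was in the wild types. Nppb, the B-type natriuretic peptide, had 10141 in the general knockout against 6231 and 7434. The hypertrophy and stress list as a whole did not lean: of 18 measured members 5 were above both heart-specific knockouts and 7 below both (34.3% and 34.8% of all genes), with a median of -0.03. In the wild types 16 of the 18 were higher in the general heart (31.3% of all genes), with a median of 0.90. This stands beside the raised atrial markers of that array, Nppa being on both lists, and the part of those markers in it was not tested.

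Pdlim3, a PDZ and LIM protein of the Z-disc, was the only one of the 13 genes above the 2-fold line whose wild types had the opposite order. It had 2102 in the general knockout against 1004 and 903, and 1492 in the general wild type against 2796 and 1802. Kcne1, the small subunit of the slow delayed rectifier potassium channel, had 585 in the general knockout against 1253 and 1769.8. All 4 of its kept probes were lower there, but the dimmer ones differed less. With the mean of its probes the log2 difference was -0.48, against -1.35 for the brightest. Its heart-specific wild types lay on either side of the general one, with 899.8 in the general heart against 1325 and 394. Ndrg4, a cytoplasmic protein enriched in heart and brain, had 340.5 against 753 and 1787 in the knockouts and 669 against 339 and 1310.3 in the wild types. For Kcne1 and Ndrg4 the 2 heart-specific wild types differed by more than the mean difference between the knockout lines.

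Of the named genes of immune and blood cells, Il15 and Fcer1g were lower in the general knockout and Ccl11 and Hbb-b2 were higher. Il15, a cytokine that maintains natural killer and memory T cells, had 343 in the general knockout against 1338 and 1650.3 in the heart-specific knockouts, 4.34-fold lower (log2 -2.12 ± 0.81, limma SE). All 3 kept probes were lower. The wild types ran from low to high without regard to line, with 1013 in the general heart and 253 and 1187 in the heart-specific hearts. The 2 heart-specific wild types thus differed from each other about as much as the knockout lines did.

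Fcer1g, the signalling chain of Fc receptors on myeloid cells, was not above background in the general knockout (109) and had 313 and 459 in the heart-specific knockouts. Against the background level of 123 in the general array it was at least 3.09-fold lower there. The wild types did not share this, with 521 in the general heart against 310.1 and 484. Other macrophage genes differed less. Of 15 measured macrophage markers, with Fcer1g itself counted, 9 lay below both heart-specific knockouts and 1 above (34.8% and 34.3% of all genes). The summed intensity of these markers was 14174 in the general knockout against 14723 and 18869.9. Their median log2 difference was -0.03 against the female and -0.41 against the male heart. Lyz2 had 2070.1 in the general knockout against 2579 and 2691. Csf1r, the receptor that macrophages need for survival, had 429.8 against 427 and 572, so the female heart-specific heart was no higher.

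Among 28 measured interferon-inducible genes 17 were below both heart-specific knockouts, 2 above and 9 between, where 34.8% of all genes were below and 34.3% above. The median log2 difference was -0.20, and -0.04 in the wild types. Oas2, an antiviral oligoadenylate synthetase, had 176 in the general knockout against 259 and 339.6, Oasl2 had 328 against 478 and 602, and Ifit3 had 353 against 493 and 553. The same 3 genes were lowest in the general heart among the wild types too, where Oas2 had 150.3 against 181 and 275. The median against the female heart was -0.10 and against the male -0.36.

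Ccl11 (eotaxin, which attracts eosinophils) had 376 in the general knockout against 156 and 150.1 in the heart-specific knockouts and 338 against 227 and 172 in the wild types. Cd300lg, a receptor glycoprotein of capillary endothelium, had 945 against 473 and 437 in the knockouts. Its wild types had the opposite order, with 668 in the general heart against 858 and 686, the male value being close to the general one. Hbb-b2, a minor adult beta-globin whose presence varies between mouse haplotypes, had 2946 in the general knockout against 1188 and 193, and 3599.7 against 965 and 979 in the wild types. Hba-a1, an alpha-globin, differed less and had 44903 in the general knockout against 42292 and 43509. Hbb-b2 shares most of its sequence with the other beta-globins, and bead probes may not separate them fully.

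Of 24 measured genes of the extracellular matrix 18 lay below both heart-specific knockouts and 2 above (34.8% and 34.3% of all genes). Their median log2 difference was -0.46, the lowest of the 35 lists drawn in the plot of list medians. Against the female heart-specific knockout alone the median was -0.29, and against the male -0.57. Mfap4, a microfibril protein, had 204 in the general knockout against 375 and 565. Eln, which encodes elastin, had 243 against 385 and 687, and Col4a1, a basement membrane collagen chain, had 2689 against 4284 and 7121. In all 3 the male heart-specific knockout was the highest, and the general value lay below both.

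Lum, a collagen-binding proteoglycan, had 1235 in the general knockout against 2059 and 1832, and Loxl1, which crosslinks elastin, had 1059 against 1559 and 1843. The wild types gave a list median of -0.15 with 9 members below both and 7 above both (37.2% and 31.3% of all genes), so the order was less even there. Fibroblast markers moved with the matrix genes, several of which are on that list as well: 9 of 12 were below both heart-specific knockouts (34.8% of all genes), their median was -0.30, and their summed intensity was 26297 in the general knockout against 27879 and 28071. Dcn, the brightest of them, had 17893 in the general knockout against 17123 and 17203. The part of fibroblast content in the matrix values was not tested. Spon2, a secreted matrix protein, was 2.98-fold lower, with 362 in the general knockout against 1123 and 1029.8 and 357 against 902 and 1359.9 in the wild types, although only 1 of its 2 kept probes was lower in both comparisons.

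The remaining named genes belong to protein turnover, vesicle traffic and less studied families. Psmd8, a lid subunit of the proteasome's regulatory particle, had 1336 in the general knockout against 641 and 601, and 1720.2 in the general wild type against 585 and 605. The lines did not overlap in either genotype. Wdfy1, an endosomal adaptor, showed the reverse order with 167 against 363 and 338 in the knockouts and 148 against 363 and 364 in the wild types, 1 of its 2 kept probes being lower in both comparisons. Tmem82 had 443 against 834 and 856 in the knockouts and 257 against 817 and 886 in the wild types. These 3 genes divided the 6 arrays by line, as did Ptgds, Dbp and others named above.

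Tmprss13, a membrane serine protease, had 323 in the general knockout against 121 and 136. Rab4a, a small GTPase of recycling endosomes, had 287 against 134 and 141. Dnase2a, the lysosomal DNase, had 539 against 263 and 189, with 2 of 3 kept probes higher. In the wild types Tmprss13 and Rab4a kept this order and Dnase2a did not, with 314 in the general heart against 449.9 and 199.

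On the lower side, Erdr1, named as an erythroid differentiation regulator, had 388 in the general knockout against 1127.5 and 1126.6 and 755 in the general wild type against 1583 and 1171. Abhd1, of the alpha/beta hydrolase family, had 127 against 347 and 342 in the knockouts and 342 against 504 and 161 in the wild types, and all 3 kept probes were lower. Cbfa2t3, a transcriptional corepressor, had 348 against 706 and 688, although its other kept probe, nearer to background, was higher at 131 against 122 and 112. Tmem25 had 367 against 734 and 726. Abhd1 was the one of these 4 whose wild types did not keep the order.

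**Figure D3:**
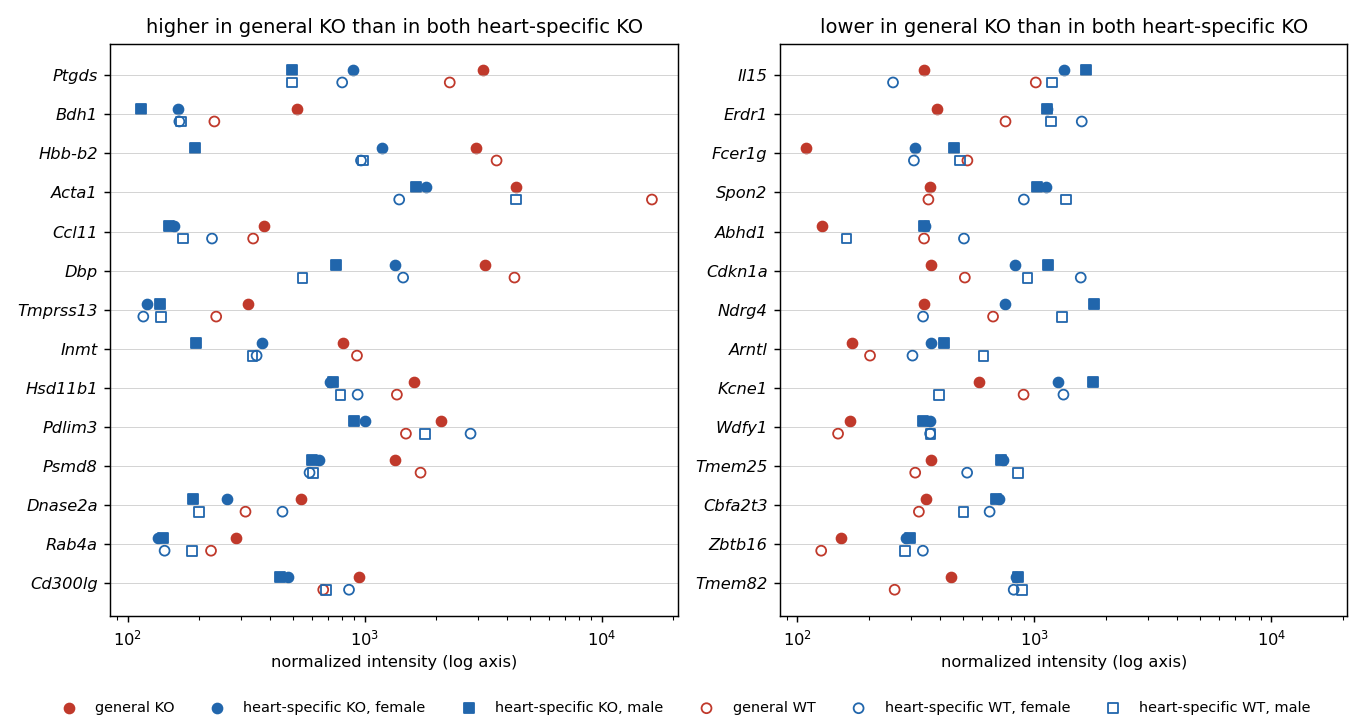
Normalized intensity on a log axis for the 14 named genes per direction, with filled marks for knockouts and open marks for wild types (red, general; blue, heart-specific; circles female and squares male in the blue set). In the left panel the filled red marks lie right of the filled blue ones, and in the right panel left of them; the open marks keep that order for Ptgds, Psmd8 and Wdfy1 and lose it for Pdlim3, Il15 and Fcer1g.

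Of 22 measured antioxidant genes 14 lay above both heart-specific knockouts and 4 below (34.3% and 34.8% of all genes), with a median log2 difference of 0.24, and 0.25 in the wild types. Cat, which encodes catalase, had 965 in the general knockout against 513 and 589.96, Gpx4, which reduces lipid peroxides, had 26076 against 17712 and 17028, and Gsta1, a glutathione S-transferase, had 242 against 148 and 128. Cat and Gpx4 overlapped among the wild types, whereas Gsta1 had 289 in the general heart against 142 and 109.

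Of 61 measured genes of oxidative phosphorylation 36 were above both heart-specific knockouts and 12 below (34.3% and 34.8% of all genes), with a median of 0.07. Ndufb9, a complex I subunit, had 6698 in the general knockout against 3919.6 and 3399. Atp5e, the epsilon subunit of ATP synthase, had 1782 against 1152 and 1133. The other 13 lay between the heart-specific knockouts. Uqcrq, a complex III subunit, was among those below both, with 334 in the general knockout against 445 and 448. Fatty acid use did not lean, with 13 of 36 above and 10 below, near the shares of all genes, and a median of 0.04. Among other histone demethylases, of 15 measured 4 were above both and 8 below (34.3% and 34.8% of all genes), none by 1.5-fold, and Kdm2a had 853 in the general knockout against 1007 and 1077.

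**Figure D4:**
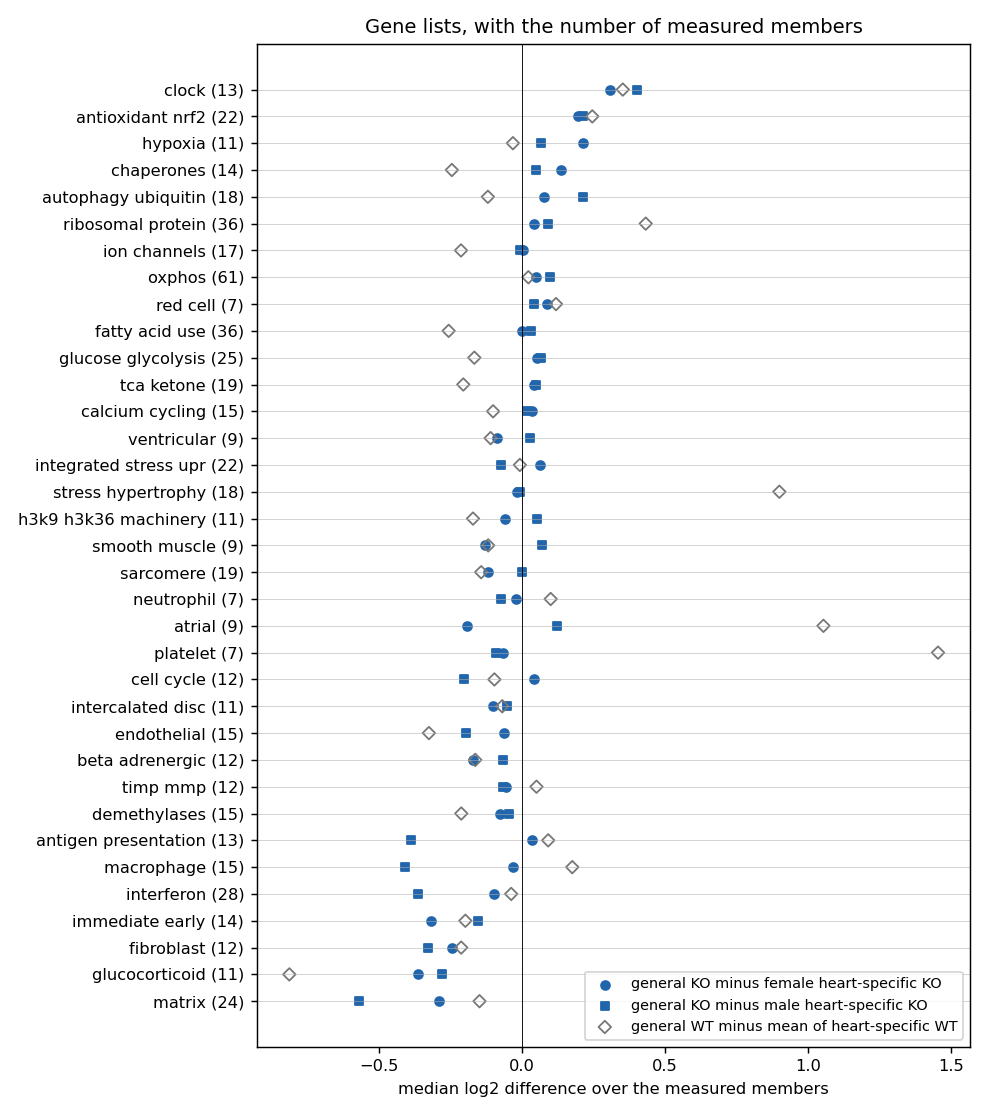
Median log2 difference over the measured members of 35 gene lists, whose number stands after each name: general knockout minus female (circles) and minus male (squares) heart-specific knockout, and general wild type minus the mean of the heart-specific wild types (open diamonds). Clock genes lie at 0.31 and 0.40 and matrix genes at -0.29 and -0.57, glucocorticoid genes lie lower than matrix genes against the female (-0.36), and the diamonds leave the filled marks for the platelet, atrial and stress lists.

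The wild types share no array with the knockouts and gave the line difference on other arrays, again with 1 array on the general side. That array is the general wild type that stood apart from the other 5. Among the knockouts the type of deletion goes with the line, and it cannot be told apart from other differences between the lines. Of the 13 genes at least 2-fold higher in the general knockout, 11 were also higher in the general wild type than in both heart-specific wild types, 1 was between and 1 was opposite. Of the 10 lower genes 5 were lower in the wild types as well, 4 were between and 1 was opposite. At 1.5-fold the same order was kept by 51 of 71 higher and 28 of 41 lower genes, against 44.9% of the 7729 genes that lay outside both heart-specific knockouts by any amount. In the wild types 31.3% of genes were above both heart-specific hearts and 37.2% below. Over all 11185 genes, which do not count as independent, the 2 line differences had a Pearson correlation of 0.34 and a Spearman correlation of 0.30.

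**Figure D5:**
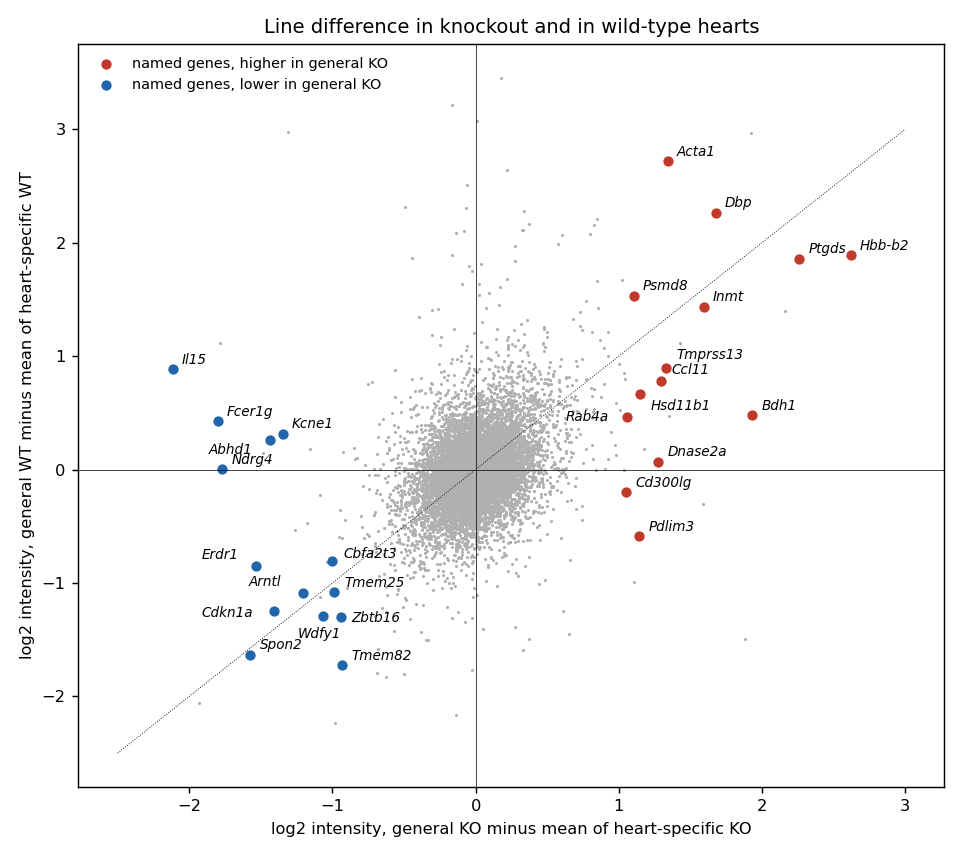
Each point is a gene, with the log2 difference between lines in knockouts on the horizontal axis and in wild types on the vertical axis; the dotted line marks equal differences. Most named genes lie in the lower left and upper right; Il15, Fcer1g, Abhd1, Kcne1, Pdlim3 and Cd300lg lie in the other corners and Ndrg4 on the horizontal line.

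The line difference beyond that of the wild types was tested in the same limma fit. No gene passed an adjusted p of 0.05 (0 of 11185, 0%), and 446 had an unadjusted p under 0.05. The smallest adjusted p was 0.0951, for Timp1, the tissue inhibitor of metalloproteinases. This contrast cannot be computed without the general wild type, where Timp1 had 1995 against 188 and 176 in the heart-specific wild types, while the knockouts had 182 in the general heart against 145 and 178. With each knockout and its wild type as a block, limma called 5 genes (Alas2, Gdpd3, Ppbp, Slc4a1 and Timp1). Without the female heart-specific wild type it called 4 (Abhd1, Ppbp, Timp1 and Xirp2), and without the male 3 (Il15, Ppbp and Timp1). Among named genes the interaction was 1.73 for Pdlim3 and -2.23 for Fcer1g on the log2 scale, with limma adjusted p of 0.952 and 0.905.

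The genes at least 2-fold apart were also looked up by chromosome. Chromosome 8 held 6 of the 23, among 584 of its genes tested (1.03%). It held 5.33% of the 10951 genes tested with a chromosome, among which all 23 lay. The other 20 chromosomes (autosomes, X and Y) held between none and 4 of the 23, and the next highest share was 0.581% on chromosome 16. At 1.5-fold chromosome 8 held 13 of 112 (2.23% of its genes), and chromosomes 1 and 13 followed with 1.84% and 1.78%, leaving aside Y, with 3 genes tested. The 7 on chromosome 13 include the histone genes H4c12, H4c18, H4c9, H4c1 and H4c11, whose probes may read several copies. The 6 on chromosome 8 at 2-fold are Acta1, Pdlim3, Dnase2a, Rab4a, Il15 and Ndrg4. Kdm4a lies on chromosome 4, and of the 20 nearest measured genes on each side of it none differed by 1.5-fold from both heart-specific knockouts. Of the 40, 21 were above both and 11 below both (34.3% and 34.8% of all genes), with a median log2 difference of 0.05.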

How the data were processed

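Total RNA of 6 hearts was measured on 1-colour bead arrays, and samples were grouped by their titles. The deposited intensities, on a linear scale from 82.48 to 50962.29, come from GenomeStudio, per the submitters' processing notes; for its version and its background and normalization options, nothing is given in the sources used here. After sorting, the 6 arrays differed by no more than 2.32% at any rank, so the authors' intensities were taken as normalized between arrays. Background left in them compresses folds of dim genes. The 12 sample columns of another table carry numbers found in no label and were not used. Of 45281 probes, 34885 have 1 gene in the platform annotation, 18 several and 10378 none; 34807 matched GRCm38.p6 for symbols. Background on an array was the 95th percentile of 1526 olfactory, vomeronasal and trace amine receptor probes (121 to 124). A probe had to exceed it on 2 or more of 6 arrays, and receptor probes were left out; the brightest represented its gene. A fold against a group not above background is given as at least N-fold, against that level.

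Log2 intensities were fitted in 4 groups with limma 3.58.1 in R 4.3.3 (2 residual degrees of freedom, prior 4.07; Benjamini-Hochberg, adjusted p under 0.05). Named are the 14 genes per direction with the largest smaller difference from the heart-specific knockouts and up to 5 members per direction of each list described; further clock members, histone genes, Myl2, Csf1r, Dcn, Hba-a1, Timp1, Myl4, Fos and Gdpd3 stand beside results they bear on. Members and lists were chosen with earlier results of these data known. Tested on simulated data for the knockout line difference (20 runs, 11185 genes, 200 changed), the fit recovered 22.6% of genes changed by log2 1 and 91.9% of those changed by log2 2, with 7 false calls per run. Each run planted 100 genes at each size, which eases the adjusted cutoff, and drew all arrays as independent noise. The shares hold for that setting and are not the power on the real arrays, where Bdh1 at log2 1.93 was not called.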

Additional observations from a re-analysis of the deposited data

How the results depend on the processing

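The limma count for the knockout line difference was 0 under every alternative run but a sex term for the heart-specific arrays, which gave 2 calls (Ptgds, adjusted p 0.0427, and Xist, 0.0487, which differs between the female and the male heart). The difference beyond wild type gave 2 calls at a normexp offset of 50, 8 with an intensity trend, 5 with the knockout and wild-type pair as a replicate block, and 0 to 4 with 1 heart-specific array left out (4 without the female wild type, 3 without the male). Timp1 and Ppbp were among the calls in each setting that gave any, and both were high in the general wild type alone. No paired analysis was possible for the knockout line difference because the titles pair each knockout with its wild type. Genes at least 2-fold from both numbered 31 higher and 30 lower at a normexp offset of 16, 17 lower at an offset of 50, 6 lower with the mean of a gene's probes, 71 and 41 at 1.5-fold, and 29 to 40 higher and 26 to 32 lower against a lone heart-specific knockout. Refits of named genes gave 0 reversals, 177 values within the spread of the 2 knockout differences and 47 beyond it. The filters and a repeated quantile normalization left the brightest probe's values the same or nearly so. Leaving out 1 knockout cannot reverse genes chosen for 1 direction against both, nor move them beyond that spread. Only the normexp offsets and the mean of a gene's probes could do so, and all 47 came from them. The clock median was 0.45 (knockout-array filter), 0.16 (no filter), 0.55 (offset 16) and 0.46 (offset 50). The antioxidant median was 0.30 and 0.27 at offsets 16 and 50, 0.19 with probe means and 0.20 to 0.21 with 1 knockout left out. The stress list stayed near 0 (-0.018, -0.034, -0.043 and -0.035 under the first filter, no filter, offset 16 and probe means; -0.0183 to -0.0077 with 1 knockout left out). Immediate early genes gave -0.43 at offset 16 and -0.32 to -0.15 with 1 knockout left out, glucocorticoid genes -0.36 to -0.28 and endothelial genes -0.20 to -0.064. Probe means gave -0.032 for red cell genes and 0.070 for fatty acid genes, whose median was 0.0016 to 0.031 with 1 knockout left out. The cause of these moves was not tested. One general knockout array, unstated background correction and probes near background limit what dim genes can show.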

Other observations

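Histone genes were looked at after their values had been seen. Of 46 measured, 21 lay above both heart-specific knockouts in the general knockout and 9 below both (34.3% and 34.8% of all genes), and the median log2 difference was 0.09. The 6 that were at least 1.5-fold higher, as were 0.647% of genes above background on a knockout array, were H4c12, H2ac18, H4c18, H4c9, H4c1 and H4c11. H4c12 had 1018 in the general knockout against 468 and 526 in the female and male heart-specific knockouts, and H2ac18 had 2373 against 1258 and 1109.8. In the wild types 30 of the 46 were higher in the general heart than in both heart-specific hearts (31.3% of all genes), with a median of 0.32. H2ac18 was not among them, with 1483 in the general wild type against 1635 and 652. Copies of a histone gene are nearly identical in sequence, and probes may read several of them.

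Immediate early genes, which respond within minutes to stimuli, were lower in the general knockout in 11 of 14 measured members and higher in 2. The shares of all genes were 34.8% and 34.3%. The median of the list was -0.28 (-0.32 against the female and -0.15 against the male heart). Klf2, an endothelial factor induced by flow, had 1091 in the general knockout against 1753 and 1335, and Klf4 had 304 against 369.7 and 395. Fos had 155 in the general knockout against 640.4 and 169.99, so its difference rested on the female heart-specific knockout. Among autophagy genes 9 of 18 were above both heart-specific knockouts and 2 below (34.3% and 34.8% of all genes), and Map1lc3a, which coats autophagosomes, had 3986 in the general knockout against 2613 and 2279.65.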
